A study of Homo sapiens with 15 samples.

Results

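The genes described here are 10 genes for enzymes and subunits that write or remove repressive chromatin and DNA marks, chosen by name and matched by symbol among 58381 counted genes. All 10 were found, and all 10 passed the filter on low counts; the lowest count of any of them in any library was 133 (TET1) and the highest 7315 (DNMT1). They comprise 5 genes of Polycomb repressive complex 2 (EZH1, EZH2, EED, SUZ12 and JARID2), 3 DNA methyltransferases (DNMT1, DNMT3A and DNMT3B) and 2 dioxygenases that oxidise methylated cytosine (TET1 and TET2).

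Their RNA was measured by bulk RNA sequencing in 5 sublines of VCaP, an established prostate cancer cell line with the TMPRSS2-ERG fusion, with 3 libraries per subline and 15 in all. VCaP-T was grown for 7 months in RPMI medium with the serum labelled DCC-FBS and 10 nM testosterone and is labelled as androgen sensitive, and the other 4 sublines are labelled as resistant. VCaP-CT was derived from VCaP-T by 10 further months, at 0.1 nM testosterone according to the treatment protocol and at 10 nM according to the labels of the samples. VCaP-CT-ER, which the protocol calls VCaP-CT-ET, was VCaP-CT kept in 10 µM of the antiandrogen enzalutamide (ENZ) until it grew again. VCaP-CT-BR was VCaP-CT kept in bicalutamide, an older antiandrogen, until insensitive to it, and its label also mentions subsequent ENZ. VCaP-CT-BR-ER was the subline that also grew despite ENZ after bicalutamide; the label gives no dose for either agent. All 5 sublines share the first growth in 10 nM testosterone. Each subline was derived once as far as the labels say, so treatment, time in culture and derivation cannot be told apart. The study calls the 3 libraries of a subline biological replicates, but neither it nor the labels say whether they were separate cultures, so p values measure the spread between these libraries of a subline derived once. In what follows, the testosterone step is VCaP-CT against VCaP-T, the ENZ step is VCaP-CT-ER against VCaP-CT, the bicalutamide step is VCaP-CT-BR against VCaP-CT, and the ENZ step after bicalutamide is VCaP-CT-BR-ER against VCaP-CT-BR. The first 3 of these steps share the VCaP-CT libraries.

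Library totals lay between 33665716 and 46935279 counted fragments, and no pair of libraries held identical counts. Levels are given as CPM, the count of a gene relative to its library's total after TMM scaling. The lowest correlation of log2 CPM between libraries of a subline was 0.9938, above the highest between sublines of 0.9704, both across genes, which are not independent replicates. Prostate luminal markers were at 10300 to 24100 CPM in sum and the leukocyte markers at no more than 0.155 CPM in sum, with CD3E listed at 0. KLK3, which encodes prostate-specific antigen, averaged 3560 CPM for VCaP-T, 33.1 for VCaP-CT, 520 in VCaP-CT-ER, 14.1 for VCaP-CT-BR and 40 for the VCaP-CT-BR-ER libraries. Of the 4 fibroblast markers, whose sum lay between 6.2 and 249 CPM, LUM stood at 195 CPM in the subline VCaP-CT-ER and 236 for VCaP-CT-BR-ER against 0.756 in VCaP-T, COL1A2 was listed at 0 in all libraries and DCN did not pass 0.498 CPM. COL1A1 went the other way, at 6.56 CPM in VCaP-T, 0.43 in VCaP-CT-ER and 0.905 for VCaP-CT-BR-ER. The neuroendocrine markers summed to a mean of 238 CPM in VCaP-T, mostly CHGB (159 CPM), and to 12.7 to 40 CPM in the other sublines, while CHGA, a defining marker, had at most 1 count. NCAM1 went the other way in VCaP-CT-ER, at 29 CPM against 6.98 in VCaP-T, and was at 1.52 to 3.13 in the remaining sublines. Basal markers had their highest mean sum in VCaP-T (10.2 CPM, mostly KRT14) and their lowest in VCaP-CT-BR-ER (0.261 CPM), as did the endothelial ones (14.9 and 0.183 CPM, mostly VWF). What part these differences have in the results below was not tested, and in bulk RNA fewer cells of a type cannot be told apart from less RNA per cell.

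Polycomb repressive complex 2 (PRC2) places methyl groups on lysine 27 of histone H3 and so keeps genes silent. Its catalytic subunit is EZH2 or, mainly in cells that do not divide, EZH1; EED and SUZ12 are needed for its activity, and JARID2 helps to bring it to its targets. DNA methylation is copied at replication by DNMT1 and set on unmethylated DNA by DNMT3A and DNMT3B, while TET1 and TET2 oxidise the methyl group as a step towards its removal. High EZH2 is a known feature of advanced prostate cancer, and EZH2 is also a known target of E2F factors, which act in dividing cells.

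The sequences around the start sites are shown because EZH2 and DNMT1, known for their use in dividing cells, carry letters that E2F factors can bind. One RefSeq promoter window of 300 bases per member was taken from GRCh38.p14, the one nearest the start of the gene in the counting annotation, and searched on both strands for TTTCCCGC, TTTGGCGC, TTTCGCGC and TTTGCCGC. A match was found in 4 of the 10 windows, those of EZH1, EZH2, SUZ12 and DNMT1, and in 3.31% of all 35116 promoter windows. The matches, in capitals within 30 bases of the gene's own strand, were these.
EZH1: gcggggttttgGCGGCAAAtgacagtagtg
EZH2: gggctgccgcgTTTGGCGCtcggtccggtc
SUZ12: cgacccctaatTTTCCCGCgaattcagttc
DNMT1: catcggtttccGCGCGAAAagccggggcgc
They lie at chr17:42745137-42745166 (minus strand), chr7:148884272-148884301 (minus), chr17:31936807-31936836 (plus) and chr19:10194937-10194966 (minus). The upstream sequence of EZH2, chr7:148884292-148884541 on the minus strand, ends just before the start site and holds 4 CCAAT boxes, on either strand and in capitals here, the letters bound by the factor NF-Y.
EZH2 upstream: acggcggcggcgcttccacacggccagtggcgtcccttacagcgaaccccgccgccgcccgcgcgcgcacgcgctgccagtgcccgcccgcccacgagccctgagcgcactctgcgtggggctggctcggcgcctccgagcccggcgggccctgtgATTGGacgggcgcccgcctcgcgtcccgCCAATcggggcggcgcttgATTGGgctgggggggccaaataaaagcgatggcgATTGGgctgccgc
CCAAT occurred in 5 of the 10 member windows (EZH2, EED, SUZ12, JARID2 and DNMT3B) and in 34.61% of all windows. The letters AGAACA, part of androgen response elements, occurred in none of the 10 windows and in 14.79% of all. A further RefSeq promoter of TET2, 1001 bases from its counted start and not among the 10, held 1 match. The 10 windows held between 3 (DNMT3B) and 46 (EZH2) CpG sites, around a median of 14 over all windows. Those with an E2F match held 30 (EZH1), 46 (EZH2), 40 (SUZ12) and 30 (DNMT1). The letters searched for E2F themselves contain CG, and their share was not taken over windows equally rich in CpG. For DNMT1 and DNMT3B the windows lie 36333 and 17467 bases inside the counted gene, which starts further upstream. These matches describe letters in a window and do not show binding.

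EZH2 (ENSG00000106462.10, chromosome 7, 148807383 to 148884321 on the minus strand, GRCh38) was lowest in VCaP-CT and higher in all 3 antiandrogen-resistant sublines. Its level in CPM was 46.7, 49.65 and 49.4 in the 3 VCaP-T libraries and 29.6, 32.7 and 30.9 in those of VCaP-CT. It was 52.9, 52.2 and 54.5 in VCaP-CT-ER, 49.3, 44.1 and 44 for VCaP-CT-BR and 39.4, 40.3 and 39.8 for the VCaP-CT-BR-ER libraries. Every VCaP-CT library was below every other library, and those of VCaP-CT-ER were the highest. In the testosterone step EZH2 fell, with a log2 fold change of −0.65 ± 0.057 (SE, adjusted p = 2.74e-09) by edgeR's quasi-likelihood test and Benjamini-Hochberg adjustment over all genes tested, as for all adjusted p values here. It rose in the ENZ step by 0.78 ± 0.057 (SE, adjusted p = 1.68e-10) and in the bicalutamide step by 0.56 ± 0.057 (SE, adjusted p = 6.11e-08). It fell in the ENZ step after bicalutamide, with −0.20 ± 0.056 (SE, adjusted p = 0.00649), and this call was lost without replicate 1 of VCaP-CT-BR, the highest of its group (−0.13, adjusted p = 0.0812, edgeR). In order of level, VCaP-CT-ER stood above VCaP-T (adjusted p = 0.0415), VCaP-T and VCaP-CT-BR did not differ past the threshold (adjusted p = 0.177), and VCaP-CT-BR-ER and VCaP-CT came below.

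EZH1 (ENSG00000108799.12, chromosome 17, 42700275 to 42745049 on the minus strand) varied least of the 10 genes, with subline means of log2 CPM within a range of 0.19. It stood at 17.3, 16.3 and 16.85 CPM for VCaP-T, 18.4, 18.8 and 18.45 for VCaP-CT and 19.65, 20.2 and 17.8 in VCaP-CT-ER. The VCaP-CT-BR libraries held 18.35, 16.9 and 15.8 CPM and those of VCaP-CT-BR-ER 19.2, 18.8 and 18.1. No step passed the test, with log2 fold changes of 0.14 ± 0.069 (SE) in the testosterone step, 0.054 in the ENZ step, −0.12 in the bicalutamide step and 0.14 in the ENZ step after bicalutamide, the last of which passed without replicate 1 of VCaP-CT-BR (0.205). Among the other pairs of sublines, VCaP-CT-ER was above VCaP-T (adjusted p = 0.0153) and above VCaP-CT-BR (adjusted p = 0.031). The ratio of EZH2 to EZH1 was lowest in VCaP-CT, as EZH2 was. On the TPM scale, which divides counts by exon length before scaling each library to the same total, the ratio was 4.465 ± 0.27 (SD, n = 3) in VCaP-T and 2.59 ± 0.098 in VCaP-CT. It was 4.295 ± 0.388 in VCaP-CT-ER, 4.16 ± 0.137 for VCaP-CT-BR and 3.29 ± 0.116 for the VCaP-CT-BR-ER libraries. EZH2 therefore stood above EZH1 per length in each subline, least so in VCaP-CT.

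SUZ12 (ENSG00000178691.10, chromosome 17, 31937018 to 32001045 on the plus strand) was the PRC2 gene with the highest level per length, at 46.6 ± 3.26 TPM (SD, n = 3) in VCaP-T beside 28.4 ± 1.61 for EZH2, 4.66 ± 0.275 for EED and 3.98 ± 0.474 for JARID2. Its libraries held 109, 118 and 119 CPM for VCaP-T, 103, 97.2 and 104 for VCaP-CT and 94.9, 92.1 and 105 in VCaP-CT-ER. Those of VCaP-CT-BR held 152, 141 and 151.5 CPM and in VCaP-CT-BR-ER 134, 126 and 136. The sublines taken through bicalutamide were above the others, with no overlap. SUZ12 rose in the bicalutamide step by a log2 fold change of 0.55 ± 0.056 (SE, adjusted p = 5.5e-08). The other called changes were small, −0.19 ± 0.056 (SE, adjusted p = 0.00634) in the testosterone step and −0.165 ± 0.055 (SE, adjusted p = 0.0199) in the ENZ step after bicalutamide. That last call was lost without replicate 1 or 3 of VCaP-CT-BR or replicate 2 of VCaP-CT-BR-ER (−0.134, −0.146 and −0.121). In the ENZ step the log2 fold change of −0.058 did not pass (adjusted p = 0.384). SUZ12P1, a partial copy on the same chromosome, had 624 to 1018 counts per library, beside 3414 to 6112 for SUZ12, and how fragments of shared sequence were divided between them was not tested.

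EED (ENSG00000074266.19, chromosome 11, 86244544 to 86278813 on the plus strand) was lowest in VCaP-T and higher in each later subline. The VCaP-T libraries held 13.35, 12.55 and 11.25 CPM and those of VCaP-CT 17.9, 14.9 and 17.75. In VCaP-CT-ER they held 22.2, 21.7 and 24.7 CPM, in VCaP-CT-BR 21.2, 18.1 and 18.2 and in VCaP-CT-BR-ER 21.4, 21.9 and 22.4. All later libraries were above those of VCaP-T. EED rose by 0.45 ± 0.089 (SE, adjusted p = 0.000156) on the log2 scale in the testosterone step and by 0.44 ± 0.084 (SE, adjusted p = 0.000124) in the ENZ step. The bicalutamide step and the ENZ step that followed it gave 0.19 and 0.19 and did not pass (adjusted p = 0.0733 and 0.0713), but the former passed without replicate 1 of VCaP-CT (0.246) and the latter without replicate 1 of VCaP-CT-BR (0.282), without the filter on low counts (0.206, adjusted p = 0.0487) and with only the sublines compared in the fit (0.184, adjusted p = 0.0405). In order of level, the neighbours VCaP-CT-ER, then VCaP-CT-BR-ER, then VCaP-CT-BR, then VCaP-CT did not differ past the threshold from one to the next, while the highest and the lowest of these 4 did. LUM, a fibroblast marker named above, was highest in the same 2 sublines that led this order, while COL1A1, another, was highest in VCaP-T. The part of either in the result was not tested. A microRNA gene, MIR6755, covers 66 of its exon bases, 0.94%, and had no count.

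JARID2 (ENSG00000008083.13, chromosome 6, 15246296 to 15522040 on the plus strand) changed most of the PRC2 genes, in the direction opposite to EZH2 in the steps around VCaP-CT. Its libraries held 8.07, 9.445 and 9.65 CPM in VCaP-T and 21.7, 24.75 and 22.75 in VCaP-CT. They held 9.485, 10.15 and 9.49 in VCaP-CT-ER, 17, 14.4 and 18.2 for VCaP-CT-BR and 16.6, 13.7 and 13.95 for the VCaP-CT-BR-ER libraries. VCaP-CT was above all other sublines without overlap, whereas VCaP-T and VCaP-CT-ER overlapped. JARID2 rose in the testosterone step by a log2 fold change of 1.35 ± 0.096 (SE, adjusted p = 8.72e-11). It fell in the ENZ step, −1.25 ± 0.094 (SE, adjusted p = 2.71e-10), and in the bicalutamide step, −0.48 ± 0.091 (SE, adjusted p = 0.00016). VCaP-CT-ER and VCaP-T did not differ past the threshold (log2 fold change 0.099, adjusted p = 0.391), nor did VCaP-CT-BR-ER from VCaP-CT-BR (−0.165, adjusted p = 0.164), though the latter pair did without replicate 2 of VCaP-CT-BR (−0.247).

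**Figure D1:**
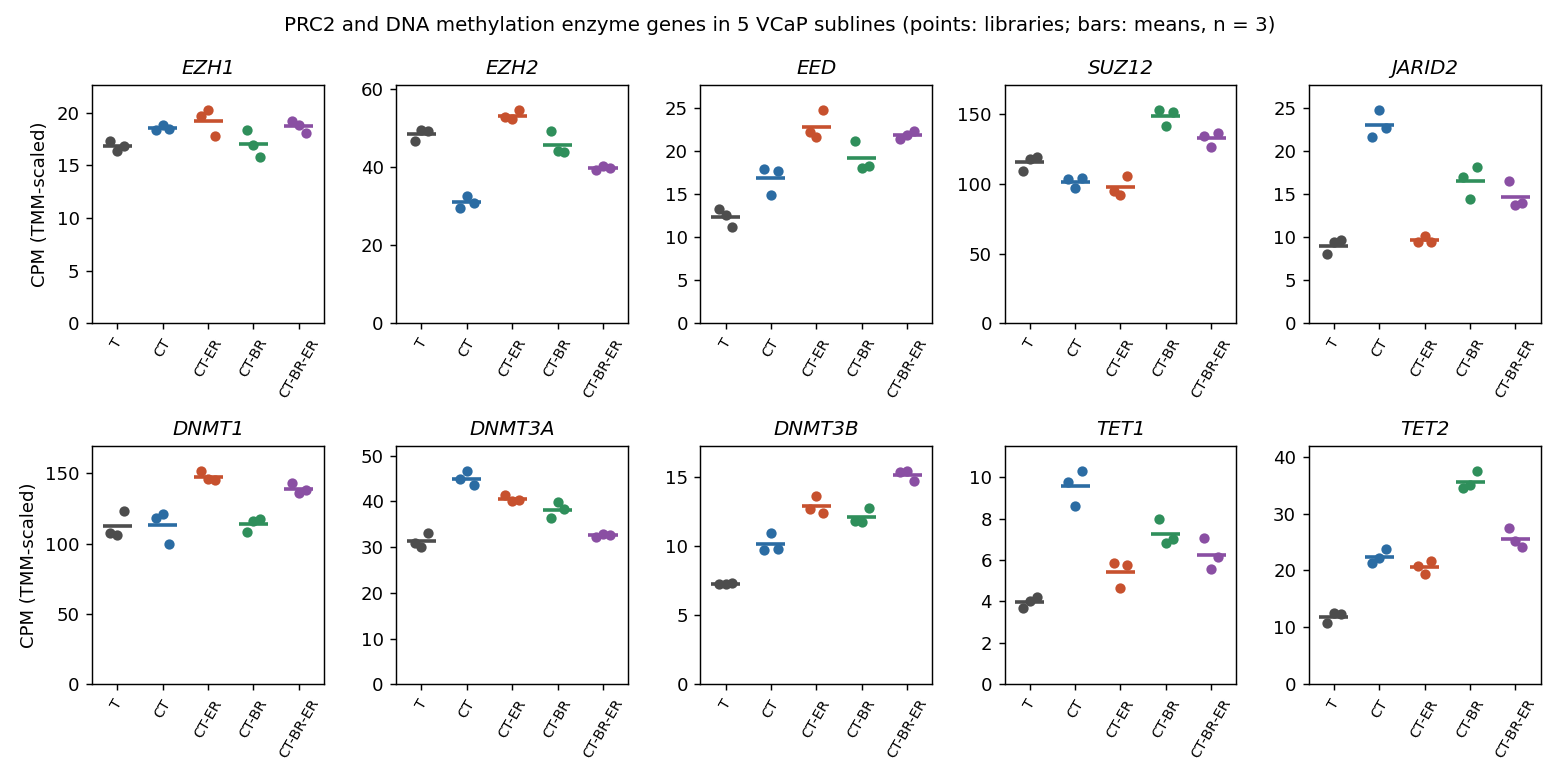
TMM-scaled CPM (vertical axes, from 0) of the 10 genes in the 5 VCaP sublines, with a point per library and a bar at the mean of 3. EZH2 is lowest in VCaP-CT, where JARID2, TET1 and DNMT3A are highest, DNMT1 is highest in VCaP-CT-ER, followed by VCaP-CT-BR-ER, and TET2 is highest in VCaP-CT-BR.

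DNMT1 (ENSG00000130816.15, chromosome 19, 10133345 to 10231286 on the minus strand), which keeps methylation in place through cell division, was higher in the 2 sublines that ended in ENZ resistance than in the other 3. It stood at 108, 106 and 123.5 CPM for VCaP-T, 118, 121 and 99.9 for VCaP-CT and 108, 116 and 117 in VCaP-CT-BR. The VCaP-CT-ER libraries held 151.5, 146 and 145 CPM and those of VCaP-CT-BR-ER 143, 136 and 138. The lowest ENZ-resistant library was above the highest of the rest. DNMT1 rose by 0.38 ± 0.066 (SE, adjusted p = 3.89e-05) on the log2 scale in the ENZ step and by 0.29 ± 0.066 (SE, adjusted p = 0.0013) in the ENZ step after bicalutamide. VCaP-CT differed from VCaP-T by 0.01 (adjusted p = 0.907) and VCaP-CT-BR from VCaP-CT by 0.009 (adjusted p = 0.922), values whose sign turned with the scaling or with 1 library left out. VCaP-CT-BR-ER and VCaP-CT-ER differed by −0.085 (adjusted p = 0.312). LUM was highest in these 2 sublines too, while COL1A1 was highest in VCaP-T. Of the exon bases of DNMT1, 83 (0.85%) are shared with S1PR2 on the same strand.

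The methyltransferases that set new methylation both rose in the testosterone step and moved in opposite directions in the later ones. DNMT3A (ENSG00000119772.16, chromosome 2, 25227855 to 25342590 on the minus strand) stood at 30.9, 29.9 and 33.1 CPM in VCaP-T and 44.8, 46.6 and 43.6 in VCaP-CT. It was at 41.3, 40 and 40.4 in VCaP-CT-ER, 36.3, 39.85 and 38.25 for VCaP-CT-BR and 32.3, 32.8 and 32.7 for the VCaP-CT-BR-ER libraries. VCaP-CT was highest, and VCaP-CT-BR-ER overlapped VCaP-T. DNMT3A rose by 0.52 ± 0.055 (SE, adjusted p = 4.16e-08) on the log2 scale in the testosterone step and then fell in each further step. The falls were −0.24 ± 0.055 (SE, adjusted p = 0.000978) in the bicalutamide step, −0.23 ± 0.055 (SE, adjusted p = 0.00221) in the ENZ step after it and −0.15 ± 0.054 (SE, adjusted p = 0.0225) in the ENZ step from VCaP-CT. The last of these was lost when only the sublines compared were fitted (adjusted p = 0.0673), without the filter on low counts (adjusted p = 0.222), and without any one of 5 libraries: replicate 1 or 2 of VCaP-CT or any replicate of VCaP-CT-ER (−0.116 to −0.147, edgeR).

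DNMT3B (ENSG00000088305.18, chromosome 20, 32762385 to 32809356 on the plus strand) rose in all 4 steps. Its libraries held 7.27, 7.295 and 7.34 CPM in VCaP-T and 9.75, 11 and 9.81 in VCaP-CT. They held 12.7, 13.7 and 12.4 in VCaP-CT-ER, 11.9, 11.75 and 12.8 for VCaP-CT-BR and 15.4, 15.45 and 14.7 for the VCaP-CT-BR-ER libraries. Levels were lowest in VCaP-T and highest in VCaP-CT-BR-ER, without overlap with any other subline. The log2 fold changes were 0.48 ± 0.077 (SE, adjusted p = 1.32e-05) in the testosterone step, 0.35 ± 0.072 (SE, adjusted p = 0.000279) in the ENZ step, 0.255 ± 0.073 (SE, adjusted p = 0.00581) in the bicalutamide step and 0.32 ± 0.07 (SE, adjusted p = 0.000783) in the ENZ step after bicalutamide. VCaP-CT-ER and VCaP-CT-BR did not differ past the threshold (adjusted p = 0.275). The ratio of DNMT3A to DNMT3B in TPM was 1.65 ± 0.08 (SD, n = 3) in VCaP-T and 1.71 ± 0.067 in VCaP-CT. It was 1.21 ± 0.072 in VCaP-CT-ER, 1.21 ± 0.084 for VCaP-CT-BR and 0.827 ± 0.025 for the VCaP-CT-BR-ER libraries. DNMT3B was thus the higher of the pair per length in VCaP-CT-BR-ER and the lower in the other 4 sublines.

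**Figure D2:**
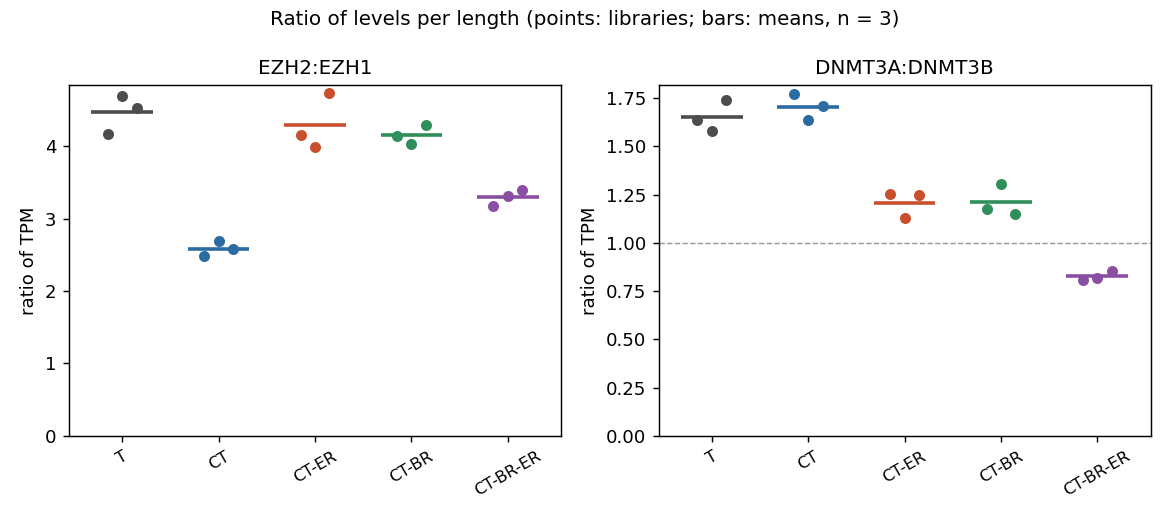
Ratio of TPM of EZH2 to EZH1 (left) and of DNMT3A to DNMT3B (right) in each library (points) with the mean of 3 (bars), vertical axes from 0. EZH2:EZH1 is lowest in VCaP-CT at 2.59, and DNMT3A:DNMT3B is below the dashed line at 1 in VCaP-CT-BR-ER, at 0.827.

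TET1 (ENSG00000138336.8, chromosome 10, 68560656 to 68694482 on the plus strand) had the lowest level of the 10 genes, 1.13 ± 0.106 TPM (SD, n = 3) in VCaP-T and 2.55 ± 0.183 in VCaP-CT. Its libraries held 3.66, 4 and 4.19 CPM for VCaP-T, 9.75, 8.63 and 10.3 for VCaP-CT and 5.86, 4.66 and 5.74 in VCaP-CT-ER. They held 7.985, 6.8 and 7.04 CPM in VCaP-CT-BR and 7.07, 5.585 and 6.135 in VCaP-CT-BR-ER. VCaP-T was below and VCaP-CT above all other sublines. TET1 rose by 1.27 ± 0.115 (SE, adjusted p = 3.59e-09) on the log2 scale in the testosterone step, and it fell in the ENZ step, −0.82 ± 0.108 (SE, adjusted p = 1.26e-06), and in the bicalutamide step, −0.39 ± 0.107 (SE, adjusted p = 0.0039). The ENZ step after bicalutamide gave −0.21 (adjusted p = 0.128). VCaP-CT-BR-ER and VCaP-CT-ER, next to each other in level, did not differ past the threshold either (adjusted p = 0.127).

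TET2 (ENSG00000168769.13, chromosome 4, 105145875 to 105279816 on the plus strand) had the widest range of the 10, 1.585 in log2 CPM between VCaP-T and VCaP-CT-BR. Its libraries held 10.7, 12.4 and 12.4 CPM in VCaP-T and 21.35, 22.2 and 23.8 in VCaP-CT. They held 20.8, 19.4 and 21.6 in VCaP-CT-ER, 34.45, 35 and 37.45 for VCaP-CT-BR and 27.5, 25.1 and 24.2 for the VCaP-CT-BR-ER libraries. VCaP-T was lowest and VCaP-CT-BR highest, neither overlapping any other subline, and the libraries of VCaP-CT and VCaP-CT-ER overlapped. TET2 rose by 0.92 ± 0.076 (SE, adjusted p = 9.3e-10) on the log2 scale in the testosterone step and by 0.67 ± 0.071 (SE, adjusted p = 1.07e-07) in the bicalutamide step. It then fell in the ENZ step after bicalutamide, −0.48 ± 0.07 (SE, adjusted p = 1.11e-05). In the ENZ step from VCaP-CT the log2 fold change was −0.125 (adjusted p = 0.144).

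**Figure D3:**
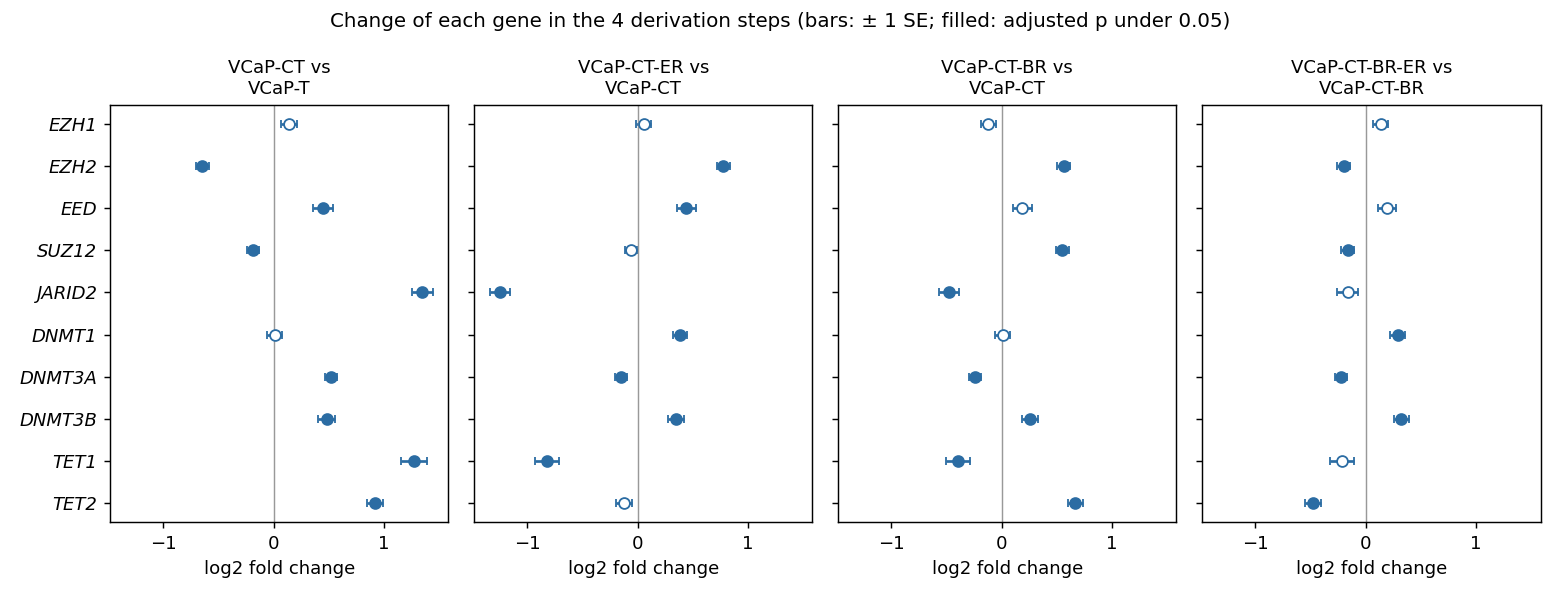
Log2 fold change (horizontal axis) of each gene in the 4 steps from a subline to the one derived from it, with bars of 1 SE on each side and filled circles where the adjusted p was under 0.05. JARID2, TET1 and TET2 lie furthest to the right in VCaP-CT against VCaP-T, JARID2 and TET1 furthest to the left in VCaP-CT-ER against VCaP-CT, and EZH2 lies on the other side of 0 in each of these panels.

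How many of the 10 genes passed in each comparison is read beside the share of all genes that did, which was large throughout. Of all genes, 33.1% were higher and 32.2% lower in the testosterone step, 29.6% and 31.2% in the ENZ step, 26.1% and 27% in the bicalutamide step and 21.2% and 21.7% in the ENZ step after it. In the testosterone step, 8 passed the test (6 higher and 2 lower), where 65.3% of the 19621 genes tested did. The ENZ step called 7 (4 higher, 3 lower) beside 60.9% of all genes, the bicalutamide step 7 (4 higher, 3 lower) beside 53.2%, and the ENZ step after bicalutamide 6 (2 higher, 4 lower) beside 42.9%. The median log2 fold changes of the 10 genes in these steps were 0.463, −0.002, 0.098 and −0.165 (over all genes tested 0.026, −0.019, −0.017 and 0.003). Against VCaP-T, 9 genes differed in VCaP-CT-ER (8 higher), 7 in VCaP-CT-BR (all 7 higher) and 8 in VCaP-CT-BR-ER (7 higher), beside 69%, 71.2% and 70.2% of all genes. For the remaining pairs, 9 differed in VCaP-CT-BR-ER against VCaP-CT (52.5% of all genes), 8 in VCaP-CT-ER against VCaP-CT-BR (55.9%) and 6 when VCaP-CT-BR-ER was set against VCaP-CT-ER (45.9%). Over all 10 pairs, 75 comparisons of a member passed. With 10 genes beside such shares of all genes, the counts describe the members and show nothing particular to them. Required to exceed a 1.2-fold change, 4 members passed in the bicalutamide step (EZH2, SUZ12, JARID2 and TET2), beside 29.4% of all genes, and 1, TET2, in the ENZ step after it, beside 20.9%.

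The 2 ENZ steps, which share no library, ask whether the same drug step gave the same change with and without earlier bicalutamide. In a direct edgeR test of the difference, 4 of the 10 genes passed, beside 49.7% of all genes. EZH2 rose in the step from VCaP-CT and fell in the step from VCaP-CT-BR, a difference of −0.98 ± 0.08 (SE, adjusted p = 2.47e-09) on the log2 scale. JARID2 fell in the former and changed by −0.165 in the latter, a difference of 1.08 ± 0.132 (SE, adjusted p = 8.21e-07). For TET1 the difference was 0.61 ± 0.154 (SE, adjusted p = 0.00261), and for TET2 it was −0.35 ± 0.101 (SE, adjusted p = 0.0063). DNMT1 and DNMT3B rose in each of the 2 steps, with differences of −0.094 ± 0.094 and −0.025 ± 0.101 (SE) between them that did not pass. The starting points differed, since EZH2, TET2 and SUZ12 had already risen and JARID2 and TET1 already fallen in the bicalutamide step, and the label of VCaP-CT-BR itself mentions ENZ.

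**Figure D4:**
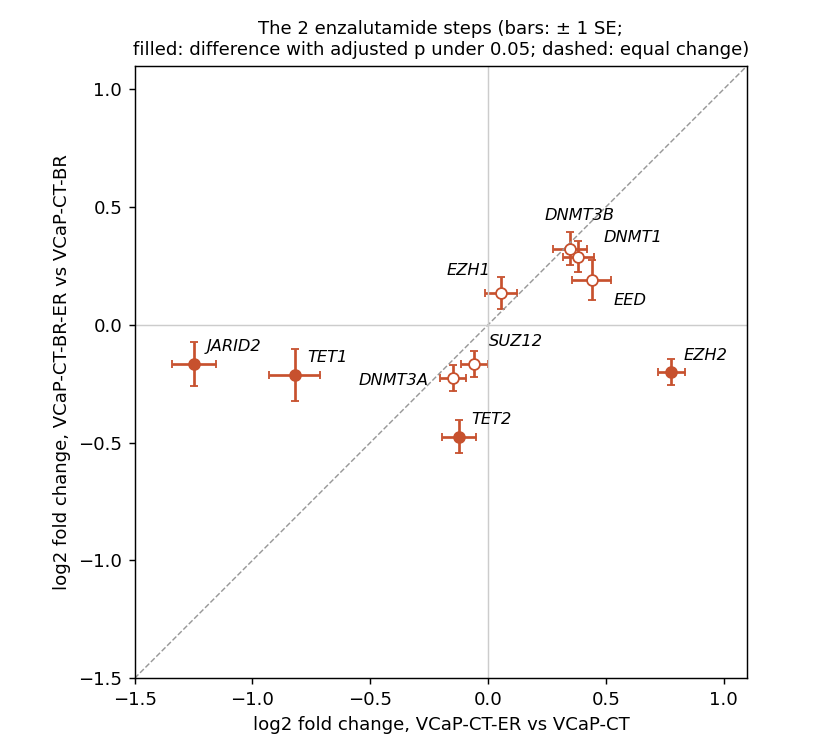
Log2 fold change of the 10 genes in the ENZ step from VCaP-CT (horizontal axis) against that from VCaP-CT-BR (vertical axis), with bars of 1 SE on each side, a dashed line of equal change and filled circles where the difference passed the test. EZH2, JARID2, TET1 and TET2 are off the line, and DNMT1 and DNMT3B lie above 0 on both axes.

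To place the changes on the chromosomes, each gene was set beside the genes within 5 Mb on each side that had an average log2 CPM of at least 1. For the 32 genes around TET2 on chromosome 4, the medians had the sign of its own change. Their median log2 fold change was 0.53 in the testosterone step, 0.36 in the bicalutamide step and −0.33 in the ENZ step after bicalutamide, where TET2 itself gave 0.92, 0.67 and −0.48. Over all genes of such levels the medians were 0.035, 0.02 and 0.004. TET2 lay above the upper quartile of its neighbours in the testosterone step (0.733) and between their quartiles in the other 2 (0.146 to 0.698 and −0.703 to −0.2). DNA copy number was not analysed here, and whether the region moved as a whole was not tested. The 35 genes around JARID2 had medians of 0.28 and 0.06 in the testosterone and ENZ steps, where JARID2 gave 1.35 and −1.25. Those of the 58 genes around TET1 were 0.034 and −0.051, beside 1.27 and −0.82, and those of the 52 around EZH2 −0.088 and −0.071, beside −0.65 and 0.78. The 86 genes around SUZ12 had a median of −0.476 in the ENZ step, while SUZ12 gave −0.058, above their upper quartile of −0.168. Around EED, the medians of 24 genes were 0.254, 0.252 and 0.195 in the testosterone, ENZ and bicalutamide steps. EED gave 0.447, 0.44 and 0.187, and 0.191 against their −0.144 in the ENZ step after bicalutamide. Around DNMT1, the medians of 189 genes were 0.119 in the ENZ step and 0.18 in that after bicalutamide. DNMT1 gave 0.383, above their upper quartile of 0.371, and 0.289, below that of 0.355. Whether these regions moved as a whole was not tested.

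**Figure D5:**
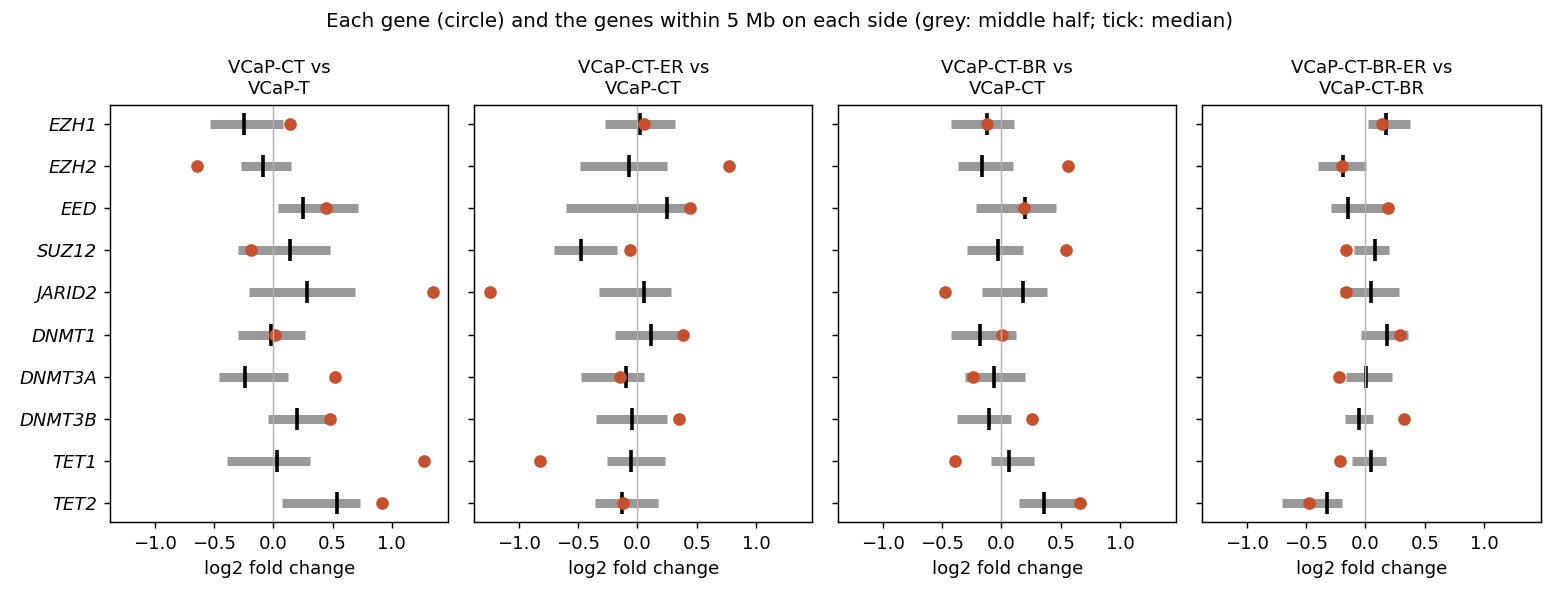
Log2 fold change (horizontal axis) in the 4 steps of each gene (circle) and of the genes within 5 Mb on each side of it (tick at the median, grey bar from the lower to the upper quartile). The neighbours of TET2 shift with it, to a median of 0.53 in VCaP-CT against VCaP-T, while EZH2, JARID2 and TET1 lie outside the grey bar in the first 3 panels.

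The genes whose profiles were nearest to a member were sought among 11300 protein-coding genes, by the mean absolute difference of centred log2 CPM over the 15 libraries. For EZH2 they were HCFC2 (0.071), KLF10 (0.076), STEAP2 (0.076), SERINC1 (0.077) and CFL2 (0.081), beside a median of 0.344 over all candidates. None of these is in the list of proliferation genes. For DNMT1 they included CALM3 (0.054), SLC41A1 (0.06), NR2F6 (0.061) and BRICD5 (0.065), beside a median of 0.288. For TET2 they were ANKRD26 (0.073), ERVMER34-1 (0.082), CTPS1 (0.085), OTUD4 (0.087) and FUBP1 (0.098), beside a median of 0.465. ERVMER34-1 and OTUD4 lie on chromosome 4, as TET2 does. In the same way CALM3 and NR2F6 share chromosome 19 with DNMT1, and STEAP2 shares chromosome 7 with EZH2.

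The proliferation genes, 20 genes of replication and mitosis, were set beside EZH2, which is known for its use in dividing cells. Their mean log2 CPM was 6.12 ± 0.034 (SD, n = 3) in VCaP-T, 6.46 ± 0.037 for VCaP-CT, 6.76 ± 0.015 in VCaP-CT-ER, 6.96 ± 0.012 for VCaP-CT-BR and 7.01 ± 0.008 for the VCaP-CT-BR-ER libraries. In the testosterone step, where EZH2 fell, 14 were higher and 1 lower, beside 33.1% and 32.2% of all genes, with a median log2 fold change of 0.383. The medians were 0.215, 0.458 and 0.07 in the further steps. In the testosterone step CCNA2 and CCNB1, cyclins of mitosis, rose by 0.93 and 0.88 on the log2 scale. RRM2, a subunit of ribonucleotide reductase, fell by 0.86 in that step and rose by 1.11, 0.59 and 0.35 in the further steps. In the ENZ step 11 were higher, among them TOP2A, a topoisomerase (1.38), beside 29.6% of all genes. In that step 2 were lower, among them MCM3, a helicase subunit (−0.77), beside 31.2% of all genes. In the bicalutamide step 15 were higher and 0 lower, beside 26.1% and 27% of all genes. The ENZ step after bicalutamide had 7 higher and 3 lower, beside 21.2% and 21.7% of all genes. In that step 6 were called in all without replicate 1 of VCaP-CT-BR-ER.

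Among 9 accessory subunits of PRC2, 6 could be tested, and 3 were higher and 0 lower in each of the first 3 steps, where 65.3%, 60.9% and 53.2% of all genes were called. These shares, with 42.9% in the ENZ step after bicalutamide, belong beside the counts of every list below. RBBP7, a histone-binding subunit, rose by 0.62 on the log2 scale in the testosterone step and by 0.39 in the bicalutamide step, and AEBP2, which binds DNA, rose by 0.50 in the testosterone step and by 0.61 in the ENZ step. In the ENZ step after bicalutamide 3 were higher, PHF19 most (0.41), and LCOR lower (−0.21). EPOP and EZHIP were listed at 0 in every library and PHF1 had at most 4 counts. The median log2 fold changes of the list over the 4 steps were 0.172, 0.115, 0.223 and 0.124. Without replicate 1 of VCaP-CT-BR-ER 2 were called in that last step.

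Of 20 subunits of Polycomb complex 1, which binds the mark that PRC2 makes and adds ubiquitin to histone H2A, 18 were tested. In the testosterone step 6 were higher and 8 lower, in the ENZ step 6 and 4, in the bicalutamide step 7 and 7, and in the ENZ step after bicalutamide 4 and 5. PCGF5 rose by 1.24 in the ENZ step and by 1.82 in the bicalutamide step and fell by 0.79 in the ENZ step after it on the log2 scale. BMI1, which stimulates the ubiquitin ligase, rose by 0.74 in the bicalutamide step and fell by 0.68 in the ENZ step after it. PHC1 rose by 1.25 and YAF2 fell by 0.62 in the testosterone step. RING1 and PCGF2 were listed at 0 in all libraries, and whether their fragments went uncounted was not tested. The medians of the list lay between −0.06 and 0.05.

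Among the 5 genes that remove Polycomb marks, 2 were higher and 2 lower in the testosterone step. KDM6A, a demethylase of the PRC2 mark, rose by 0.88 on the log2 scale in that step, while KDM6B, its relative, fell by 0.38, and by 0.93 and 0.74 in the ENZ and bicalutamide steps. The counts were 1 higher and 3 lower in the ENZ step, 0 and 2 in the bicalutamide step and 1 and 1 in the ENZ step after it, and the medians were 0.004, −0.448, −0.056 and 0.098. Leaving out replicate 1 or 2 of VCaP-CT or replicate 1 of VCaP-CT-BR left 1 call in the bicalutamide step, and leaving out replicate 3 of VCaP-CT-BR left 1 in the ENZ step after it.

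Of 10 partners and readers of DNA methylation, 9 were tested. In the testosterone step 7 were higher and 0 lower, where 33.1% of all genes were higher and 32.2% lower, and the counts were 5 and 1 in the ENZ step, 4 and 1 in the bicalutamide step, and 4 and 1 in the ENZ step after it, with medians of 0.314, 0.152, 0.119 and 0.2. HELLS, a remodeller needed for DNA methylation, rose in each step, by 0.60, 0.965, 0.53 and 0.44 on the log2 scale. UHRF1, which brings DNMT1 to newly copied DNA, rose by 0.36 in the testosterone step and by 0.215 in the ENZ step. It rose by 0.28 in the ENZ step after bicalutamide, while its change of −0.03 in the bicalutamide step did not pass. DNMT3L had at most 2 counts.

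Of 7 partners of DNA demethylation, 3 were higher and 4 lower in the testosterone step, and the medians over the 4 steps were −0.301, −0.099, 0.025 and 0.054. IDH1 and IDH2, which make the cofactor of the TET enzymes, moved apart in that step, −1.22 and 0.76 on the log2 scale. In the ENZ step after bicalutamide they moved apart the other way, 0.40 and −0.51. TET3, the remaining TET enzyme, fell by 0.32 in the testosterone step, where TET1 and TET2 rose, and by 0.17 in the ENZ step. The counts were 2 higher and 3 lower in the ENZ step, 2 and 2 in the bicalutamide step and 2 and 2 in the ENZ step after it. Without replicate 3 of VCaP-CT-ER, 3 genes were called in the ENZ step. Of the 5 genes of the methyl donor cycle, 2 were higher and 3 lower in the testosterone step, with AHCY at 0.49 and MAT2A at −0.45, and the medians over the 4 steps were −0.185, −0.039, −0.01 and −0.105. The further counts were 1 higher and 2 lower, 0 and 2, and 0 and 1, and the last of them was 0 without replicate 3 of VCaP-CT-BR-ER, 3 without replicate 2 of VCaP-CT and 2 without replicate 1 or 3 of VCaP-T, 3 of VCaP-CT, 3 of VCaP-CT-ER, 1 of VCaP-CT-BR or 2 of VCaP-CT-BR-ER.

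Lists of genes known as silenced by PRC2 or DNA methylation in prostate or somatic cells each had more genes lower than higher in the testosterone step. In that step 33.1% of all genes were higher and 32.2% lower. Within each of these lists, calls went both ways in each of the 4 steps. Of 7 PRC2-silenced genes, 5 were tested, with 1 higher and 3 lower in the testosterone step, 2 and 1 in the ENZ step, 2 and 3 in the bicalutamide step and 3 and 1 in the ENZ step after it. Without replicate 1 or 2 of VCaP-CT-BR, 3 were called in the bicalutamide step. The medians over the 4 steps were −0.893, 0.47, −0.274 and 0.432. DAB2IP, a Ras regulator, averaged 59.7 CPM in VCaP-CT, where EZH2 was lowest, and 27 in VCaP-CT-ER, where EZH2 was highest, a log2 fold change of −1.14 (adjusted p = 2.83e-11). CDH1 (E-cadherin) had a mean of 609 CPM in the VCaP-T libraries and 328 in those of VCaP-CT. CDKN1C was listed at 0.

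Of 10 genes known as promoter-methylated in prostate cancer, 8 were tested. In the testosterone step 1 was higher and 4 were lower, and 3 and 2, 2 and 1, and 1 and 2 in the further steps, with medians of −0.739, 0.281, 0.044 and −0.07. AOX1, an oxidase, had a mean of 92.5 CPM in the VCaP-T libraries and 2.38 in those of VCaP-CT (log2 fold change −5.28, adjusted p = 3.9e-20), 5.33 in VCaP-CT-ER, 2.88 for VCaP-CT-BR and 0.725 for the VCaP-CT-BR-ER libraries. RASSF1, a tumour suppressor, fell by 0.83 on the log2 scale in the testosterone step, and APC rose by 0.66 in the bicalutamide step. GSTP1, the best known of these genes, did not pass 0.544 CPM in any library and EDNRB was listed at 0. Without replicate 2 of VCaP-CT-ER, 3 calls were made in the ENZ step.

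Of 14 germline genes that DNA methylation keeps silent in somatic cells, 5 passed the filter on low counts and were tested. MAGEA3 had a mean of 26.8 CPM in the VCaP-T libraries and 1.43 in those of VCaP-CT, then 0.0998 in VCaP-CT-ER, 2.9 after bicalutamide and 0.102 after bicalutamide and ENZ. MAGEA6, a near copy whose fragments cannot be separated from those of MAGEA3 with certainty, had a mean of 18.7 CPM in VCaP-T, and no other subline mean passed 0.394. MAGEC2 rose by 0.66 on the log2 scale in the testosterone step. Counts were 1 higher and 3 lower, 2 and 2, 1 and 2, and 1 and 2 in the 4 steps, with medians of −1.728, −0.713, −0.317 and 0.158. Of 11 imprinted genes, whose 2 copies differ in DNA methylation, 8 were tested, with 5 higher and 2 lower, 4 and 0, 5 and 0, and 1 and 3, and medians of 0.237, 0.298, 0.513 and −0.144. Of all genes, 65.3%, 60.9%, 53.2% and 42.9% were called in these steps. PEG10 averaged 34.3 CPM for VCaP-T, 152 for VCaP-CT, 413 in VCaP-CT-ER, 383 for VCaP-CT-BR and 649 for the VCaP-CT-BR-ER libraries. PEG3 averaged 3.84, 1.37, 13, 6.19 and 5.65 CPM in the same order, and H19 was listed at 0.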

How the data were processed

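The 10 genes and all gene lists were chosen with earlier results of these data known. Per the labels and the study's methods, the authors aligned reads to GRCh38 with STAR 2.5.4b and counted fragments per gene with featureCounts 1.6.2 on GENCODE release 28 without regard to strand; the deposited values are raw counts, 33665716 to 46935279 per library. Symbols were taken from GENCODE release 44 (98.9% of genes matched). Counts of all 15 libraries were fitted with edgeR 4.0.16 in R 4.3.3 (filterByExpr at 10 counts, TMM, a term per subline, quasi-likelihood F test, 10 residual degrees of freedom, common coefficient of variation 0.0609), with Benjamini-Hochberg adjustment over 19621 genes and a threshold of 0.05. TPM used the exon length of the files. On simulated counts for VCaP-CT against VCaP-T, 99 of 100 genes changed 2-fold and 80 of 100 changed 1.41-fold were called, with 10 of 18818 unchanged ones.

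Named genes were the 10 members; of each list, up to 2 risers and 2 fallers by size in each step, called and averaging a log2 CPM of 1 or more; the 5 nearest profiles of EZH2, DNMT1 and the member of widest range; genes overlapping or copying a member; and cell type markers. GSTP1 and the list genes at or near 0 were named after their values were seen. Promoter motifs were chosen after the values were seen, and RefSeq promoters of GRCh38.p14 were searched in Python 3.11.15; figures used matplotlib 3.10.9. Alternatives were upper-quartile and RLE scaling, DESeq2 1.42.0, other filters, a 1.2-fold test, fits of only the sublines compared, the replicate number as a block, each of the 15 libraries left out, and a 2 Mb window. Raw reads and the study's other experiments were not analysed here, and some named genes are not reported here.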

Additional observations from a re-analysis of the deposited data

Results flagged for a closer look

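For 4 of the 10 genes, the change on gaining ENZ resistance from VCaP-CT differed from that on gaining it from VCaP-CT-BR by edgeR's test of the difference itself, beside 49.7% of all genes tested. The difference, as the later step minus the former on the log2 scale, was −0.978 for EZH2 (adjusted p = 2.47e-09), 1.082 for JARID2 (adjusted p = 8.21e-07), 0.607 for TET1 (adjusted p = 0.00261) and −0.352 for TET2 (adjusted p = 0.0063). For TET2 the difference did not pass the edgeR test against a 1.2-fold change (adjusted p = 0.16). Groups of 3 libraries were not searched for outlying values. The cause of these differences was not tested.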

How the results depend on the processing

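Of the counts of members called, 3 moved by more than 1.5 times, each with the edgeR test against a 1.2-fold change, a stricter question by construction: 4 instead of 7 in the bicalutamide step, 1 instead of 6 in the ENZ step after bicalutamide and 47 instead of 75 over the 10 pairs. Leaving out each library in turn gave 8 to 8 members in the testosterone step, 6 to 7 in the ENZ step, 7 to 8 in the bicalutamide step, 5 to 7 in the ENZ step after bicalutamide, 4 to 5 for the difference between the ENZ steps and 71 to 76 over the 10 pairs. When the replicate number entered as a block the counts were 8, 7, 7, 6, 4 and 75, and all 50 log2 fold changes of members kept their call and direction. Libraries of the same number correlated by −0.005 on average (−0.474 to 0.468, across 13052 genes) and those of different numbers by 0.003, so the numbers did not pair the libraries. Direction turned for DNMT1 and DNMT3B at values near 0 that passed no test. DNMT1 in the testosterone step was −0.013 with RLE and with DESeq2, −0.015 with at least 10 counts in every library, and −0.05 to 0.082 with a library left out. DNMT1 in the bicalutamide step was −0.032 with upper-quartile scaling, −0.003 with at least 10 counts in every library, and −0.081 to 0.074 with a library left out. The difference between the ENZ steps for DNMT3B was −0.096 to 0.015 with a library left out. The cause was not tested. With the 1.2-fold test 12 of the 32 member calls in the 4 steps and their difference were lost, and with upper-quartile scaling 1 was gained (EZH1 in the testosterone step, adjusted p = 0.0345, edgeR). Of the 44 counts over lists and steps, 21 moved by more than 1.5 times with the 1.2-fold test, 9 with at least 10 counts in every library, 1 each with upper-quartile, RLE, DESeq2 and no filter, 0 with the block and 8 in at least 1 fit with a library left out. The same 5 nearest profiles of EZH2, DNMT1 and TET2 were found with upper-quartile scaling. Depth limits TET1 most, at 133 counts in its lowest library.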
